A study of Mus musculus with 20 samples.

Results

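Mouse hypothalamic E46 cells kept for 24 h with serotonin at a labelled dose of 100 µg/ml were compared with E46 cells kept for 24 h at a labelled dose of 1 µg/ml. The members are the 4 arrays titled with the higher dose and the 4 titled with the lower dose, 8 of the 20 arrays of the series. Arrays were assigned to the groups by title, and the control arrays gave neither a mean nor a spread to the comparison. E46 (mHypoE-46, HypoE-46 in the labels) is a mouse hypothalamic cell line which the labels call neuronal and sensitive to serotonin. Cells of both groups carried no added allele that the labels mention, were grown to near confluence, and spent 4 h in DMEM without serum but with penicillin and streptomycin before serotonin was added. The other 12 arrays are 4 untreated E46 arrays, used below only as levels, and 8 arrays of a second line, A2/12, which are not described here.

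The dose labels do not all say the same. The titles and the source names give 100 µg/ml and 1 µg/ml, but the description field of these 8 arrays gives the number 1 for the arrays titled 100 and the number 100 for those titled 1. The scan names point the same way as the titles in one respect only: the treatment code of the E46 arrays titled 100 is also that of the A2/12 arrays titled 100. The groups are therefore called labelled 100 and labelled 1 after their titles. If the description holds, every direction below is turned, and each gene given as higher at the labelled 100 is higher at the lower dose. Whether each array stands for a culture of its own is not labelled. The p-values therefore speak of the spread among these arrays alone, and that spread may be technical. E46 is a single immortalised line, and its results are those of 1 clone.

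Serotonin is a monoamine made from tryptophan. Neurons of the hypothalamus receive it through G protein-coupled receptors of several families and through an ion channel, take it up with a membrane transporter, and break it down with monoamine oxidase. In the hypothalamus it is best known for reducing food intake, and the peptide Npy, which stimulates feeding, is among the genes studied under it. Cells of all kinds answer a shortage of amino acids, oxidation or a load of unfolded protein with the integrated stress response. In it, phosphorylation of the initiation factor eIF2 slows translation in general and favours the transcription factor ATF4 and its targets.

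Values are log2 levels, so a difference of 1 is a 2-fold difference. Where a pair of levels is given, the labelled 100 mean comes first and the labelled 1 mean after it, each ± SD over 4 arrays. A single value with ± is the difference, labelled 100 minus labelled 1, with its standard error, and adjusted p-values are from limma. Array quartiles, spread and background were compared first. The upper quartile of all 35556 probe sets lay between 8.23 and 8.31 in 6 of the 8 arrays and at 8.10 and 8.11 in arrays 1 and 3 of the labelled 1 group. Those 2 arrays also gave the highest readings for 1157 odorant and pheromone receptor genes taken as a measure of background: the 95th percentile of these genes was 5.36 and 5.03 there and between 4.34 and 4.69 in the other 6. Over group means it was 4.45 at the labelled 100 and 4.66 at the labelled 1, and a level near or under these values is called background below. The median SD of a gene between the 4 arrays was 0.107 at the labelled 100 and 0.149 at the labelled 1. The first principal component of the 8 arrays held 74.5% of the variance and separated the groups, and the second held 13.5%. Only 4 arrays per group limit the precision, with a median standard error of a difference of 0.097 and a median 95% interval of ± 0.217.

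E46 cells at the 2 labelled doses differed in a large share of their genes. Of 18820 genes tested with limma, 7250 (38.5%) were called at an adjusted p below 0.05, 4174 (22.2%) higher and 3076 (16.3%) lower at the labelled 100. These 3 shares are the background against which every count of members below has to be read. They are taken over all 18820 genes, of which only 12452 are counted as above background in either group. With dim genes filtered out, more genes were called in each direction among fewer genes tested, so all 3 shares are higher there. A list whose members all lie above background is therefore set against shares that are too low. A modest excess over 22.2% or 16.3% in such a list is not a result about its members. At an unadjusted p below 0.05 there were 8539 of the 18820 genes. In 6718 of the called genes the 4 values of one group lay wholly above the 4 of the other. With 4 arrays against 4, a small adjusted p mostly requires this, so the count adds little to the calls. The share over all 18820 genes is not given here. Most differences were small: 537 genes were higher and 651 lower by at least 2-fold, 40 and 108 by at least 4-fold, and 7 and 12 by at least 8-fold. The median difference over all genes was -0.01; RMA aligns the arrays' distributions, so this value cannot show whether total RNA levels shifted. The plot of the difference against the level shows both tails.

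**Figure D1:**
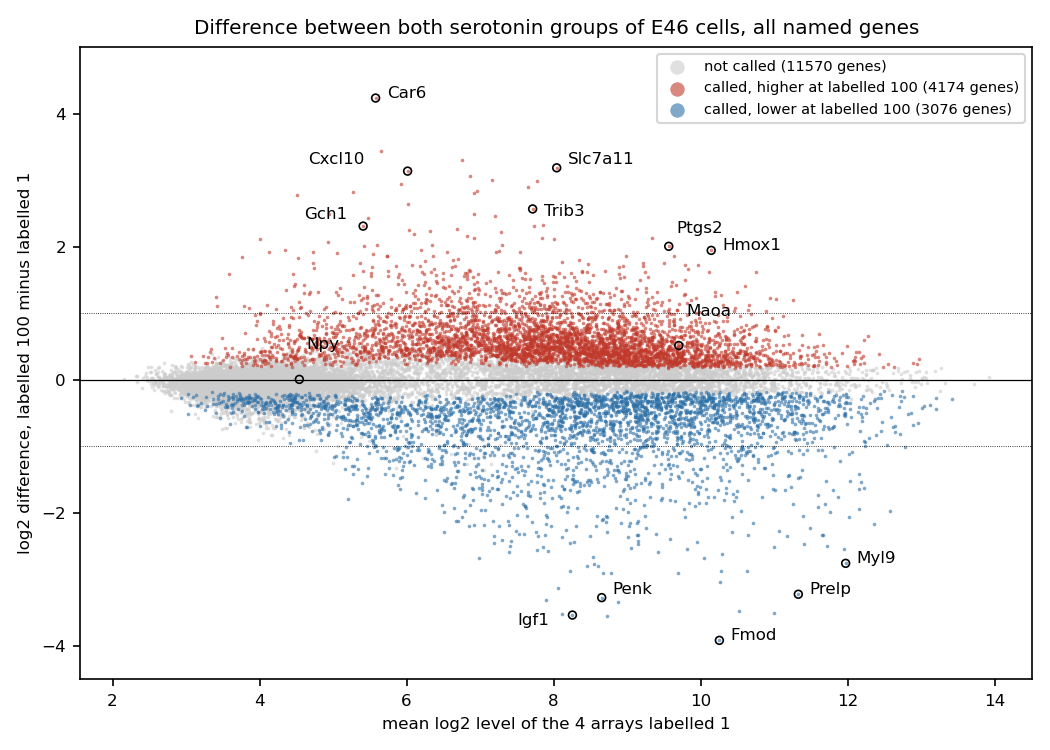
Log2 difference between the labelled 100 and the labelled 1 arrays of E46 cells (vertical axis) against the mean log2 level of the 4 labelled 1 arrays (horizontal axis), 1 dot for each of 18820 genes; red and blue dots are called at an adjusted p below 0.05, and dotted lines mark 2-fold. Car6 lies at the top and Fmod at the bottom, while Npy lies on the line of no difference.

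The labelled 1 arrays were close to the untreated arrays in the genes that differed most. Of the 1188 genes called with at least a 2-fold difference, 1182 had a labelled 1 mean within 0.5 of the control mean. The share of all 18820 genes this close is not given, so the closeness cannot be called particular to these genes. The median distance from the control mean was 0.118 at the labelled 1 and 1.35 at the labelled 100. These distances are descriptions and no test against the controls was made here.

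The gene with the largest difference was Car6, a secreted carbonic anhydrase. It read 9.62, 9.96, 9.80 and 9.87 in the labelled 100 arrays and 5.42, 5.59, 5.44 and 5.86 in the labelled 1 arrays. No value of one group came near the other, and the difference was 4.23 ± 0.11, an 18.8-fold higher level (adjusted p = 1.04e-07). Next came Avil, an actin-binding protein of the villin family and a known marker of sensory neurons, at 8.64, 9.41, 9.29 and 9.01 in the labelled 100 arrays and 5.34, 5.98, 5.44 and 5.84 in the labelled 1 arrays. The difference was 3.44 ± 0.19 (adjusted p = 1.46e-06), and array 1 of the labelled 100 group was the lowest of its 4. Slc7a11, the cystine importer of the xc exchanger, read 11.27, 11.31, 11.18 and 11.15 in the labelled 100 arrays and 7.90, 8.35, 7.69 and 8.23 in the labelled 1 arrays. That is a 9.09-fold higher level, and all 4 labelled 100 arrays lay within a narrow range (difference 3.18 ± 0.13, adjusted p = 5.75e-07).

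Others among the 15 largest positive differences fall into a few kinds. Chemokines were among them: Cxcl10, which attracts T cells and is induced by interferon, differed by 3.13 ± 0.25 and Ccl5 by 2.81 ± 0.13. Cxcl10 had the widest spread of the 15 at the labelled 1, from 5.58 to 6.74. Stress genes were the transcription factor Atf3 (3.00 ± 0.10), the phosphatase subunit Ppp1r15a that reverses eIF2 phosphorylation (2.99 ± 0.10), the secreted glycoprotein Stc2 (2.93 ± 0.09) and Cth, the transsulfuration enzyme that makes cysteine (2.90 ± 0.13). Abcc4, an exporter of organic anions and cyclic nucleotides, differed by 3.06 ± 0.12. P2rx3, an ATP-gated channel of sensory neurons, differed by 2.82 ± 0.21. The remaining 4 were Fam110c (3.30 ± 0.11), Paqr3 (2.84 ± 0.15), Atp13a4 (2.78 ± 0.16) and Dus4l (2.64 ± 0.13). The labelled 1 mean of Atp13a4, 4.51, was under background, so its difference may be understated and its rank is uncertain. In all 15 genes the 4 labelled 100 arrays lay above all 4 labelled 1 arrays, which the choice of the genes required.

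The 15 largest negative differences were led by secreted matrix proteins. Fmod, fibromodulin, a small proteoglycan that binds collagen fibrils, read 7.55, 5.63, 6.01 and 6.16 in the labelled 100 arrays and 10.16, 10.31, 10.20 and 10.35 in the labelled 1 arrays. Array 1 of the labelled 100 group was more than 1 unit above the other three of its group, yet far below every labelled 1 array, and the difference was -3.92 ± 0.33, a 15.1-fold lower level (adjusted p = 1.11e-05). Ogn, another proteoglycan of the family, read 8.00, 6.51, 6.71 and 6.95 in the labelled 100 arrays and 10.57, 10.54, 10.49 and 10.49 in the labelled 1 arrays (difference -3.48 ± 0.26, adjusted p = 5.93e-06). Prelp read 9.42, 7.48, 7.58 and 7.94 in the labelled 100 arrays and 11.36, 11.39, 11.25 and 11.32 in the labelled 1 arrays, again with array 1 as the highest of its group (difference -3.22 ± 0.36, adjusted p = 5.47e-05). Omd (-3.52 ± 0.25) and Aspn (-3.31 ± 0.22) completed the proteoglycans. Omd in arrays 2 and 3 and Aspn in arrays 2 to 4 of the labelled 100 group were under background, so their differences may be understated.

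The growth factor Igf1 read 5.70, 4.24, 4.15 and 4.77 in the labelled 100 arrays and 8.15, 8.43, 8.14 and 8.30 in the labelled 1 arrays. In arrays 2 and 3 it was at background, so the difference of -3.54 ± 0.29 (adjusted p = 8.47e-06) may understate the change. Penk, the precursor of enkephalin opioid peptides, read 6.54, 4.51, 5.13 and 5.34 in the labelled 100 arrays and 8.75, 8.78, 8.48 and 8.61 in the labelled 1 arrays, and its difference was -3.28 ± 0.34 (adjusted p = 3.94e-05). Both are ligands that hypothalamic cells can release. The other genes of this group were Islr (-3.56 ± 0.22), Nrep (-3.51 ± 0.32), Lgals2 (-3.35 ± 0.23), the monoacylglycerol lipase Mgll that breaks down an endocannabinoid (-3.13 ± 0.16), the transcriptional inhibitor Id3 (-3.05 ± 0.18), Fndc1 (-2.91 ± 0.25), the Wnt antagonist Sfrp4 (-2.91 ± 0.21) and the membrane oestrogen receptor Gper1 (-2.90 ± 0.19). In all 15, array 1 of the labelled 100 group held the highest value of its 4.

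**Figure D2:**
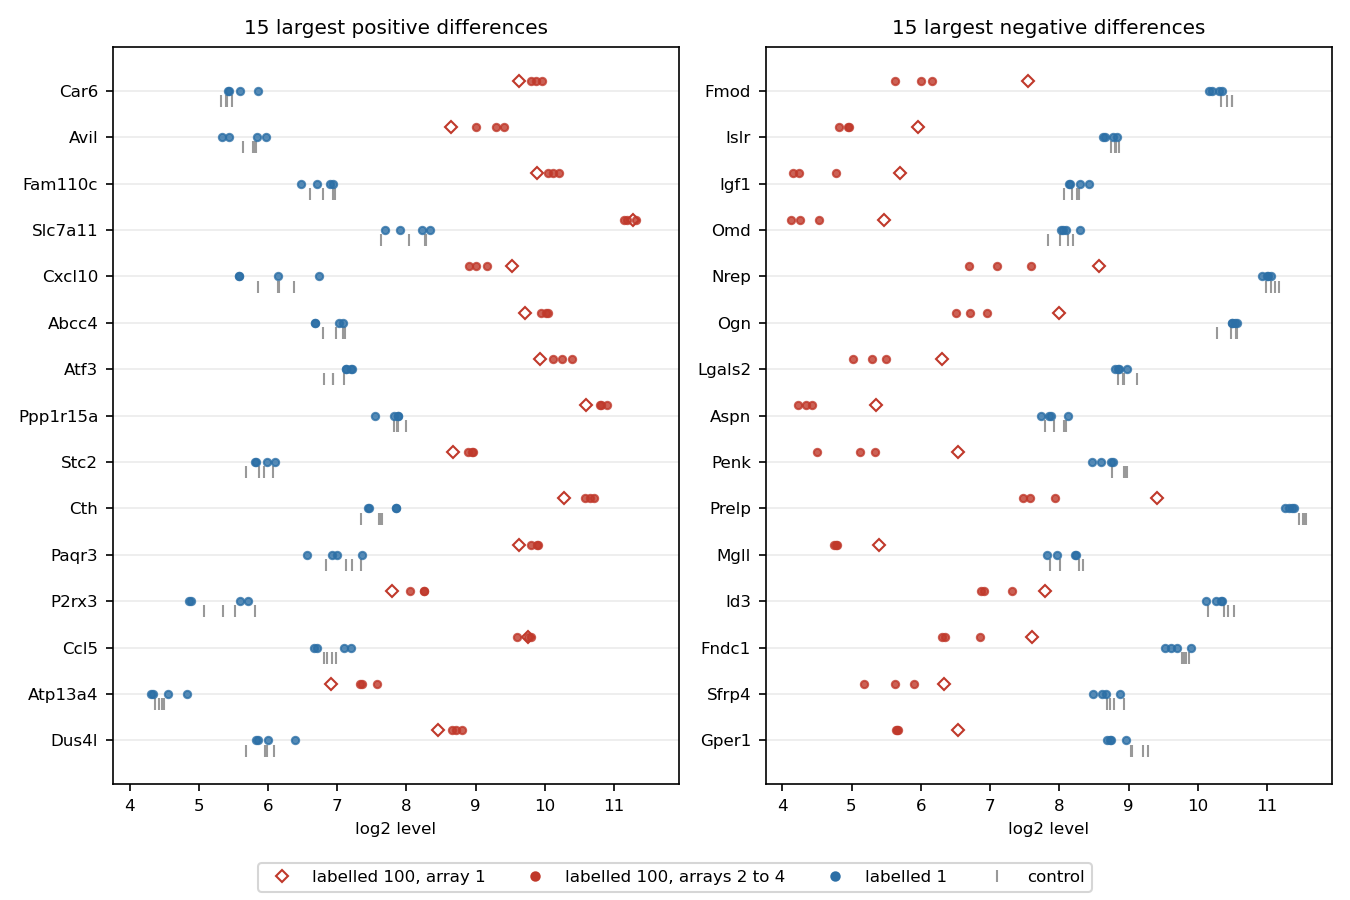
Log2 level (horizontal axes) of the 15 genes with the largest positive and the 15 with the largest negative differences, 1 mark per array: red for the labelled 100 (the open diamond is array 1), blue for the labelled 1 and grey ticks for the untreated controls. Red marks stand apart from blue ones in every gene, and on the right the open diamond is the red mark nearest to the blue ones in every gene.

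Array 1 of the labelled 100 group was nearer to the labelled 1 group than its 3 partners in most of the strongly different genes. It was the nearest of the 4 in 85.8% of the 537 genes higher by at least 2-fold and in 80.6% of the 651 lower genes. Its median difference over these genes was 1.10 for the higher and -1.19 for the lower ones, against 1.27 to 1.31 and -1.39 to -1.56 in arrays 2 to 4. All 4 medians shared the direction, which the choice of the genes by their difference in these same arrays made likely beforehand. In size, array 1 had the smallest. Without that array the count of genes called was 7071. The labelled 1 group was uneven as well. For the higher genes its arrays 1 and 3 gave median differences of 1.41 and 1.36, against 1.09 and 1.13 in arrays 2 and 4. For the lower genes they gave -1.30 and -1.34, against -1.54 and -1.46.

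The receptors of serotonin were looked at as the route by which the treatment could be sensed. Of 14 receptor genes measured, 1 was called lower, 0 higher, and the list's median difference was -0.12, beside -0.01 over all genes. Only 3 of the 14 had a mean above background at the labelled 100 and 1 at the labelled 1. The called gene was Htr1d, a receptor coupled to inhibition of adenylyl cyclase, which read 4.27, 3.99, 4.05 and 4.12 in the labelled 100 arrays and 4.68, 4.28, 4.79 and 4.50 in the labelled 1 arrays (difference -0.45 ± 0.11, adjusted p = 0.0098). These levels are themselves at background, and the 2 labelled 1 arrays with a high receptor background gave its highest readings. Without both, the difference was -0.28 (adjusted p = 0.067), and the 1 receptor called lower there was another one. Htr2a, which couples to phospholipase C, had the highest level of the family (4.68 ± 0.11 and 4.93 ± 0.22; adjusted p = 0.105).

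The remaining 12 receptors did not pass in the reported fit. The count of receptors called lower was 2 with array weights or without array 1, 2 or 4 of the labelled 1 group. It was 0 with each array centred on its median or with dim genes filtered out. Of the receptors that inhibit adenylyl cyclase, Htr1a was at 3.74 ± 0.09 and 3.68 ± 0.16, Htr1b at 4.46 ± 0.08 and 4.38 ± 0.11 and Htr1f at 4.14 ± 0.09 and 4.30 ± 0.18. Htr2b was at 4.14 ± 0.10 and 4.40 ± 0.22 and Htr2c at 3.23 ± 0.03 and 3.31 ± 0.12. The ion channel subunits Htr3a and Htr3b were at 3.33 ± 0.11 and 3.22 ± 0.17 and 3.82 ± 0.06 and 4.07 ± 0.29. These are all levels within the range of the odorant and pheromone receptor genes. Of the receptors that stimulate adenylyl cyclase, Htr4 was at 4.45 ± 0.04 and 4.63 ± 0.18, Htr6 at 4.41 ± 0.16 and 4.36 ± 0.13 and Htr7 at 3.94 ± 0.15 and 4.09 ± 0.27. Htr5a was at 3.99 ± 0.18 and 3.97 ± 0.26 and Htr5b at 4.33 ± 0.10 and 4.37 ± 0.06. A low array level does not show that a receptor is absent, since a transcript below the background cannot be measured.

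Serotonin handling was mostly at background too, with a mean above it in 5 of 16 measured genes at the labelled 100 and 4 at the labelled 1. Those clearly above it were Maoa, Aldh2 and Tgm2, all of breakdown. Of 16 measured genes 2 were called higher and 2 lower. Maoa, the monoamine oxidase that deaminates serotonin, read 10.20, 10.34, 10.14 and 10.18 in the labelled 100 arrays and 9.75, 9.68, 9.68 and 9.70 in the labelled 1 arrays. Every labelled 100 array lay above every labelled 1 array, and the difference was 0.51 ± 0.07, a 1.43-fold higher level (adjusted p = 1.94e-04). Aldh2, a mitochondrial aldehyde dehydrogenase that can oxidise the aldehyde product, was lower (8.60 ± 0.02 and 8.82 ± 0.04; difference -0.22 ± 0.06, adjusted p = 0.015). Tgm2, a transglutaminase that can attach serotonin to proteins, was lower as well (6.37 ± 0.20 and 6.97 ± 0.18; difference -0.59 ± 0.12, adjusted p = 0.0026). Slc18a2, the vesicular monoamine transporter, passed narrowly at a level near background (4.69 ± 0.13 and 4.43 ± 0.13; difference 0.26 ± 0.09, adjusted p = 0.047). Leaving out any of arrays 2, 3 and 4 of the labelled 100 group or 1, 3 and 4 of the labelled 1 group ended its call, with an adjusted p between 0.060 and 0.134.

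The other 12 genes of serotonin handling were not called. The tryptophan hydroxylases Tph1 and Tph2 were at 3.57 ± 0.09 and 3.45 ± 0.07 and 4.57 ± 0.18 and 4.92 ± 0.51, and the decarboxylase Ddc at 3.34 ± 0.11 and 3.39 ± 0.12. The plasma membrane transporter Slc6a4 was at 3.64 ± 0.10 and 3.53 ± 0.08, and the low-affinity carriers Slc22a2 and Slc29a4 at 4.19 ± 0.06 and 4.24 ± 0.13 and 3.71 ± 0.07 and 3.74 ± 0.14. Slc18a1 was at 4.07 ± 0.13 and 4.05 ± 0.21. The second oxidase, Maob, was at background (3.73 ± 0.07 and 3.93 ± 0.20), so Maoa was the only monoamine oxidase with a level above it. Aanat (3.96 ± 0.08 and 3.93 ± 0.07), Inmt (4.13 ± 0.14 and 4.05 ± 0.34), Ido1 (3.63 ± 0.13 and 3.65 ± 0.37) and Tdo2 (3.28 ± 0.06 and 3.37 ± 0.15), which modify serotonin or divert tryptophan, were at background in both groups.

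Tetrahydrobiopterin is the cofactor of the tryptophan hydroxylases and of nitric oxide synthases. All 7 genes measured for its synthesis and recycling had means above background in both groups, 1 was called higher and 1 lower. Gch1, the first and rate-limiting enzyme, read 7.55, 7.72, 7.79 and 7.80 in the labelled 100 arrays and 4.80, 5.82, 5.42 and 5.60 in the labelled 1 arrays. The difference was 2.31 ± 0.19, a 4.95-fold higher level with no overlap (adjusted p = 8.20e-06). Gchfr, the feedback regulator that binds this enzyme, was lower (7.88 ± 0.21 and 8.66 ± 0.10; difference -0.78 ± 0.11, adjusted p = 2.52e-04). The later enzymes Pts (6.49 ± 0.09 and 6.44 ± 0.08) and Spr (8.07 ± 0.12 and 8.15 ± 0.08) and the recycling enzymes Pcbd1 (4.64 ± 0.26 and 4.89 ± 0.35), Pcbd2 (difference -0.15 ± 0.07) and Qdpr (9.55 ± 0.13 and 9.52 ± 0.07) did not pass.

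**Figure D3:**
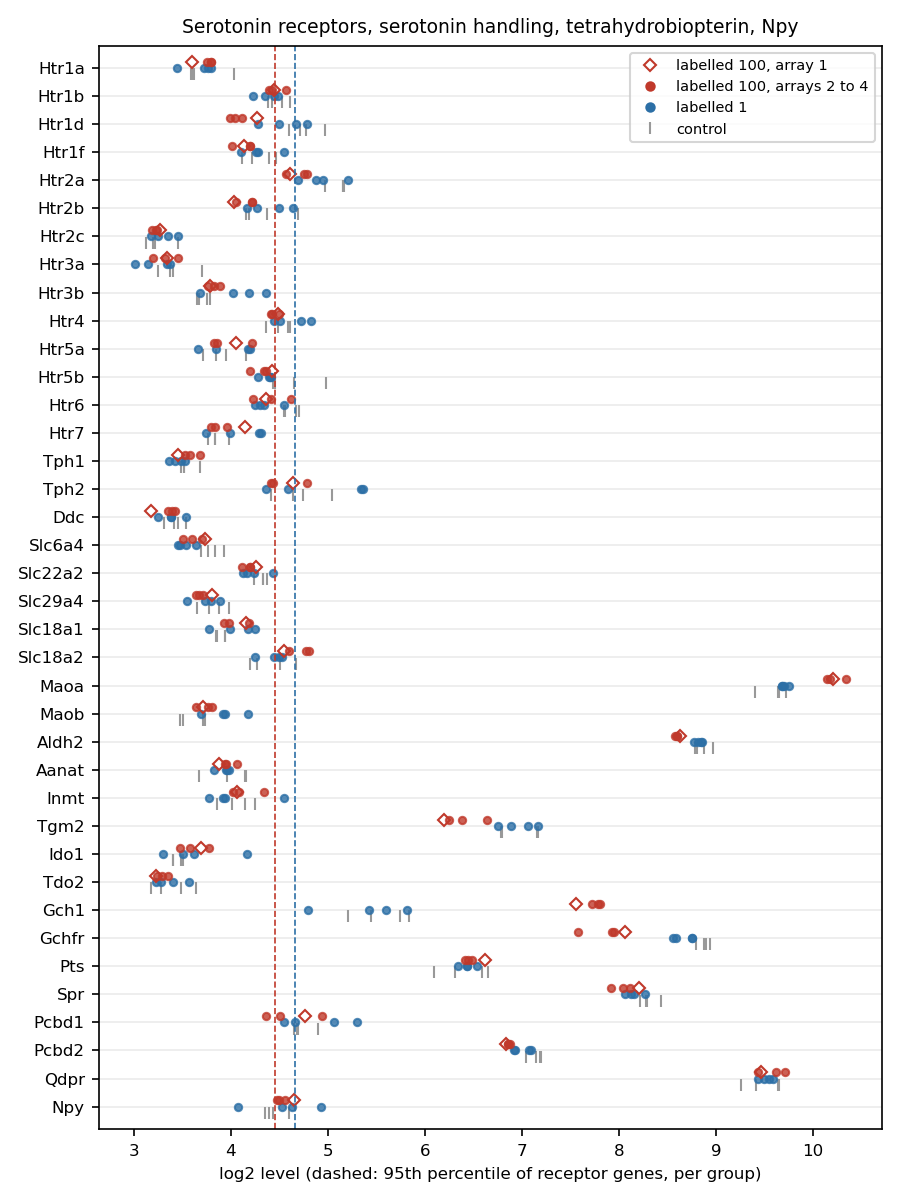
Log2 level (horizontal axis) of every measured gene of the serotonin receptors, of serotonin synthesis, transport and breakdown, of tetrahydrobiopterin, and of Npy, 1 mark per array; red is the labelled 100 (open diamond array 1), blue the labelled 1, grey the untreated controls, and the dashed lines mark the background of each serotonin group. Most receptors lie at or left of the lines, while Maoa, Aldh2, Tgm2, Gch1 and Gchfr lie right of them with the red marks apart from the blue.

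Npy, the feeding peptide named in the aim of the study, did not differ beyond the spread of the arrays. It read 4.65, 4.50, 4.55 and 4.48 in the labelled 100 arrays and 4.93, 4.07, 4.53 and 4.63 in the labelled 1 arrays. The means were 4.55 ± 0.08 and 4.54 ± 0.36, close to background in both groups, and the 95% interval of the difference ran from -0.34 to 0.35 (adjusted p = 0.986). So near background, a change in a scarce transcript may not be seen.

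Among 28 hypothalamic peptide genes 4 were called lower and 0 higher, with a median of -0.07. Besides Penk these were Nucb2, the precursor of nesfatin (8.56 ± 0.10 and 9.12 ± 0.16; difference -0.57 ± 0.09, adjusted p = 8.21e-04), and Grp (-0.44 ± 0.11) and Nmu (-0.34 ± 0.12), both at background. Nmu lost its call without any of the labelled 100 arrays or without array 1 or 3 of the labelled 1 group (adjusted p from 0.065 to 0.114). Gnrh1, the releasing hormone of the reproductive axis, was at 6.51 ± 0.19 and 6.53 ± 0.42 and did not pass (adjusted p = 0.950), nor did Bdnf (5.98 ± 0.09 and 6.23 ± 0.18; adjusted p = 0.067). Of 24 receptors of appetite signals 1 was called higher and 2 lower. Npy1r, a receptor of Npy itself, read 6.05, 5.89, 5.80 and 5.99 in the labelled 100 arrays and 7.24, 7.59, 7.15 and 7.37 in the labelled 1 arrays, a 2.64-fold lower level at the labelled 100 with no overlap (difference -1.40 ± 0.10, adjusted p = 5.21e-06). The insulin receptor Insr was higher (9.25 ± 0.10 and 8.50 ± 0.29; difference 0.76 ± 0.13, adjusted p = 0.0012), and Mchr1 lower near background (-0.44 ± 0.09). Cnr1 and Ghsr did not pass.

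Peptide processing genes were lower more often than not, and granule genes mostly did not pass. Of 20 measured in both classes, 5 were called lower and 0 higher, 4 of 7 processing genes (median -0.29) and 1 of 13 granule genes (median -0.10). Pam, which amidates peptide ends, differed by -0.77 ± 0.08 (adjusted p = 5.01e-05). Qpct, which cyclises an N-terminal glutamine, differed by -0.76 ± 0.09 (adjusted p = 1.20e-04), and the carboxypeptidase Cpe by -0.46 ± 0.08 (adjusted p = 0.0010). These 5 of 20 stand beside 16.3% of all genes called lower. The abundant members Vamp2 and Furin did not pass.

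Most members of the integrated stress response were higher at the labelled 100. Of 17 measured members 12 were called higher and 0 lower, beside 22.2% and 16.3% of all genes, and the median difference was 0.97. All 17 had means above background, so both shares are too low for this list. None of the 4 kinases that start the response was called: Eif2ak1 was at 9.21 ± 0.03 and 9.12 ± 0.09 (adjusted p = 0.377) and Eif2ak4 at 8.16 ± 0.09 and 7.91 ± 0.28 (adjusted p = 0.151). The transcription factor Atf3 read 9.93, 10.39, 10.25 and 10.12 in the labelled 100 arrays and 7.13, 7.20, 7.21 and 7.13 in the labelled 1 arrays. Its labelled 1 values lay close together, and the level was 8.01-fold higher (difference 3.00 ± 0.10, adjusted p = 1.83e-07). Trib3, a pseudokinase that restrains ATF4 activity, read 10.14, 10.33, 10.38 and 10.28 in the labelled 100 arrays and 7.42, 7.76, 7.71 and 7.96 in the labelled 1 arrays (difference 2.57 ± 0.11, adjusted p = 6.74e-07). Chac1, which cleaves glutathione, read 10.18, 10.14, 10.17 and 10.28 in the labelled 100 arrays and 8.28, 8.57, 8.63 and 8.37 in the labelled 1 arrays (difference 1.73 ± 0.09, adjusted p = 1.12e-06). Sesn2, a leucine sensor that restrains mTORC1, was higher by 2.23 ± 0.14 (adjusted p = 2.41e-06). The called members were transcription factors, feedback genes and effectors.

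ATF4 and its C/EBP partners bind a composite element, searched here as TGATGNAA on both strands in the 250 bases before each gene's start. Promoter sequences came from RefSeq (build GRCm38.p6), and 14749 of the tested genes have one. Of all 27025 genes with a promoter sequence there, 3.91% held a match. It was 5 of 17 members of the integrated stress response with a promoter, 1 of 18 amino acid transporters, 2 of 10 cytosolic and 0 of 14 mitochondrial aminoacyl-tRNA synthetases, and 2 of 13 genes of serine, asparagine, proline and one-carbon synthesis. A match is a run of letters and not a proven site, and its absence from this window says nothing of the factor. Nupr1, Vldlr, Fgf21, Gars, Tars and Got1 held a match and are not shown. The 4 windows below are examples from genes with large differences. They are shown 5′ to 3′ on the gene's strand with the match in capitals, from chr1:191183400-191183479 (minus strand) for Atf3, chr2:119351013-119351092 (plus strand) for Chac1, chr3:50443636-50443715 (minus strand) for Slc7a11 and chr6:7693210-7693268 (minus strand) for Asns. In Slc7a11 a second match, on the opposite strand and left in lower case, lies within the same window.
Atf3: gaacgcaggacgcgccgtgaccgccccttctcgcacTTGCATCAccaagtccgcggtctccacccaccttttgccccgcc
Chac1: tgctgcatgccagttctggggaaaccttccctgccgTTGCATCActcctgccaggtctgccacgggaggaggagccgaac
Slc7a11: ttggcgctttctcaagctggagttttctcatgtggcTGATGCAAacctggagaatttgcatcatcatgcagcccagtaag
Asns: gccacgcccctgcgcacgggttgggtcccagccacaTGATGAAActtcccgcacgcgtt

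Genes of amino acid supply and tRNA charging were mostly higher as well. Of 17 cytosolic aminoacyl-tRNA synthetases, the enzymes that load amino acids on tRNAs, 16 were called higher and 0 lower with a median of 1.07. Wars, for tryptophan, read 10.76, 10.81, 10.85 and 10.89 in the labelled 100 arrays and 9.23, 9.39, 9.21 and 9.28 in the labelled 1 arrays (difference 1.55 ± 0.07, adjusted p = 6.74e-07). Vars (1.33 ± 0.07), Gars (1.23 ± 0.08), Eprs (1.27 ± 0.09), Iars (1.12 ± 0.08) and Sars (1.05 ± 0.07) followed. Hars, for histidine, was the one that did not pass (9.48 ± 0.14 and 9.29 ± 0.12; adjusted p = 0.140). Of the 16 mitochondrial synthetases 10 were higher and 0 lower, with a smaller median of 0.55. Yars2 (1.10 ± 0.08) and Nars2 (1.21 ± 0.12) had the smallest adjusted p.

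Enzymes that make serine, asparagine, proline and one-carbon units were called in all 14 measured genes, 13 higher and 1 lower, with a median of 1.14. Shmt2, the mitochondrial serine hydroxymethyltransferase, read 11.98, 12.06, 12.01 and 12.00 in the labelled 100 arrays and 10.56, 10.70, 10.59 and 10.58 in the labelled 1 arrays. The 4 arrays of each group lay close together, and the difference was 1.41 ± 0.06 (adjusted p = 6.79e-07). Gpt2, an alanine aminotransferase (1.80 ± 0.10), the folate enzymes Aldh1l2 (1.72 ± 0.10) and Mthfd2 (1.49 ± 0.10), the proline enzyme Aldh18a1 (1.26 ± 0.09) and asparagine synthetase Asns (12.46 ± 0.09 and 11.25 ± 0.11; 1.20 ± 0.08) were higher. Of 25 amino acid transporters 13 were called higher and 6 lower, with a median of 0.41. Slc6a9, a glycine transporter (1.63 ± 0.07), the cationic carrier Slc7a1 (1.71 ± 0.09), the glutamine carrier Slc1a5 (1.64 ± 0.10) and Slc38a7 (0.97 ± 0.06) were higher along with Slc7a11. Slc1a3, a glutamate transporter typical of astrocytes, was lower and read 8.67, 8.34, 8.33 and 8.32 in the labelled 100 arrays and 10.03, 10.31, 10.05 and 10.31 in the labelled 1 arrays (difference -1.76 ± 0.11, adjusted p = 2.02e-06).

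Defences against oxidation were higher in part. Of 12 glutathione genes 7 were called higher and 3 lower, and of 24 detoxification genes under the factor NRF2 15 were higher and 3 lower, with medians of 0.33 and 0.42. Hmox1, the haem-degrading oxygenase, read 12.03, 12.11, 12.08 and 12.14 in the labelled 100 arrays and 10.07, 10.21, 10.05 and 10.24 in the labelled 1 arrays (difference 1.94 ± 0.07, adjusted p = 2.87e-07). Gclc and Gclm, both subunits of the enzyme that limits glutathione synthesis, differed by 1.86 ± 0.09 and 1.46 ± 0.07. Nqo1 (1.68 ± 0.09), the glutathione transferase Gsta4 (1.75 ± 0.09), the thioredoxin reductase Txnrd1 (1.32 ± 0.08) and the sulfiredoxin Srxn1 (1.35 ± 0.08) were higher, and glutaredoxin Glrx was lower (-1.49 ± 0.12). Ferritin heavy chain Fth1, the most abundant member that did not pass, was at 13.04 ± 0.05 and 12.92 ± 0.03. The core of the antioxidant response element, searched as TGACNNNGC, was found in 11.5% of all genes, in 5 of 21 NRF2 genes and in 3 of 9 glutathione genes with a promoter. The windows of 2 glutathione genes that were higher are shown with the match in capitals, chr3:122245387-122245467 (plus strand) for Gclm and chr10:82859078-82859158 (plus strand) for Txnrd1.
Gclm: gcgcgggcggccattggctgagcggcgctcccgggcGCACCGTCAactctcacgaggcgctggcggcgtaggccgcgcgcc
Txnrd1: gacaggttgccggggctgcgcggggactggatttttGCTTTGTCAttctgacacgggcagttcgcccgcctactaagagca

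Of 8 genes of the aryl hydrocarbon receptor, a sensor of planar aromatic compounds, 5 were called higher and 1 lower. Of its 5 measured targets 3 were higher and 0 lower, and of the receptor and its partners 2 were higher. The receptor Ahr itself was the lower one (9.59 ± 0.19 and 10.78 ± 0.11; difference -1.19 ± 0.10, adjusted p = 1.28e-05). Cyp1b1 (11.70 ± 0.03 and 10.91 ± 0.06; 0.79 ± 0.06) and Aldh3a1 (1.12 ± 0.11) were higher, and the classical target Cyp1a1 was at background in both groups (3.70 ± 0.14 and 3.64 ± 0.26). Nqo1 stands in this list and in that of NRF2.

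Protein folding genes were called in both directions. In the unfolded protein response of the endoplasmic reticulum 11 of 25 were called higher and 7 lower, with a median of 0.11. A fit with the row of the scan name as a block, here and below, rests on 1 labelled 1 array, as described further on. With the row of the scan name as a block 10 were higher and 1 was lower. The sensors Ern1 (1.54 ± 0.10) and Atf6 (1.32 ± 0.11), the oxidase Ero1a (1.42 ± 0.08), the chaperone Hyou1 (0.91 ± 0.07) and the degradation factor Sel1l (0.90 ± 0.08) were higher. The abundant chaperones Canx (12.22 ± 0.03 and 12.19 ± 0.04) and Hsp90b1 (11.63 ± 0.06 and 11.78 ± 0.04) did not pass. In the cytosolic heat shock list 6 of 15 were higher and 4 lower, or 6 and 2 with that block. Hspd1 (0.82 ± 0.08) and Hsph1 (0.97 ± 0.11) were higher, Hspb1 (-0.96 ± 0.11) and Bag3 (-0.53 ± 0.08) lower, and Hspa8 was at 12.87 ± 0.01 and 12.87 ± 0.01.

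Cholesterol synthesis was lower nearly throughout. Of 21 measured genes of synthesis and uptake 20 were called lower and 1 higher, beside 16.3% and 22.2% of all genes, with a median of -1.02. All 21 had means above background, so these shares too are low for the list. The pathway is switched on by the factor SREBP2 when membranes lack sterol. Hmgcs1, which makes HMG-CoA, read 8.86, 8.71, 8.69 and 8.61 in the labelled 100 arrays and 10.37, 10.55, 10.34 and 10.69 in the labelled 1 arrays (difference -1.77 ± 0.10, adjusted p = 1.44e-06). Idi1, the isopentenyl diphosphate isomerase, read 9.40, 9.42, 9.21 and 9.29 in the labelled 100 arrays and from 10.90 to 11.04 in the labelled 1 arrays (difference -1.65 ± 0.07, adjusted p = 6.74e-07). In both genes the groups lay more than 1 unit apart. Tm7sf2, a sterol reductase, had the largest difference of the list (-2.15 ± 0.10), and Mvk (-1.41 ± 0.08), Dhcr7 (-1.22 ± 0.07) and Cyp51 (-1.14 ± 0.07) were lower as well. The median of the list in the 4 labelled 100 arrays lay between -0.48 and -0.51 of the mean of the 8 arrays, the narrowest range of the lists plotted array by array.

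The core of the sterol response element, searched as TCACNCCA, was held by 4.20% of all genes and by 3 of 17 cholesterol genes with a promoter. The window of Hmgcs1, the gene of the list with both a match and a value above, spans chr13:119690178-119690257 (plus strand).
Hmgcs1: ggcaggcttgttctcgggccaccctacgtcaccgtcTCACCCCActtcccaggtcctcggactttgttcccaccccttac

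Other lipid genes were less uniform. Of 17 fatty acid synthesis genes 9 were lower and 2 higher, and 5 were lower with the row of the scan name as a block. Elovl6, an elongase, read 8.32, 8.37, 8.36 and 8.38 in the labelled 100 arrays and 9.82, 10.07, 9.94 and 9.96 in the labelled 1 arrays (difference -1.59 ± 0.07, adjusted p = 6.74e-07), and Acss2 (-1.43 ± 0.12), Scd2 (-0.70 ± 0.08) and Fasn (-0.51 ± 0.07) were lower. Of 5 genes of cholesterol export, which sterol excess switches on, 2 were lower, Apoe (-0.60 ± 0.12) and Abca1 (-0.48 ± 0.13), and 0 higher. With the same block 0 were lower.

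Genes of the extracellular matrix were lower at the labelled 100. Of 11 small leucine-rich proteoglycans 9 were lower and 0 higher with a median of -1.30, and of 22 collagens 20 were lower and 0 higher with a median of -1.06. Col1a1, the main fibrillar collagen chain, read 10.03, 9.02, 8.99 and 9.19 in the labelled 100 arrays and 11.56, 11.74, 11.50 and 11.77 in the labelled 1 arrays, with array 1 the highest of its group (difference -2.34 ± 0.21, adjusted p = 1.39e-05). Col6a3 (-2.51 ± 0.15), Col12a1 (-2.47 ± 0.20), Col14a1 (-2.34 ± 0.13), Col1a2 (-1.87 ± 0.15) and Col8a1 (-1.66 ± 0.12) were lower too. Of 9 basement membrane genes, 3 were lower, among them Lama4 (-2.41 ± 0.14), 1 was higher, Lamb1 (0.41 ± 0.08), and Lamc1 was at 9.89 ± 0.06 and 9.85 ± 0.14.

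Genes of TGF-beta signalling and of the contractile apparatus were called lower in 17 of 23 and higher in 0, with a median of -0.99. Tagln, an actin-binding protein of smooth muscle, read 8.44, 8.28, 8.37 and 8.37 in the labelled 100 arrays and 10.37, 10.57, 10.44 and 10.32 in the labelled 1 arrays (difference -2.06 ± 0.08, adjusted p = 2.87e-07). The ligand Tgfb3 (-2.51 ± 0.16), the myosin light chain Myl9 (-2.76 ± 0.22), the matricellular proteins Thbs1 (-2.55 ± 0.20) and Ccn2 (-1.94 ± 0.14) and the collagen crosslinker Lox (-1.92 ± 0.14) were lower. Fibronectin, Fn1, and Ccn1, which belong to the same list, were at 12.76 ± 0.04 and 12.74 ± 0.07 and 11.66 ± 0.17 and 11.63 ± 0.06 and did not pass.

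Secreted growth regulators moved in both directions. In the IGF system 6 of 10 genes were lower and 2 higher. Besides Igf1, the binding proteins Igfbp7 (-1.73 ± 0.12) and Igfbp3 (-1.19 ± 0.12) were lower, while Igfbp4 was higher and read 7.34, 7.43, 7.35 and 7.35 in the labelled 100 arrays and 6.05, 6.28, 6.24 and 6.04 in the labelled 1 arrays (difference 1.22 ± 0.08, adjusted p = 2.70e-06). Of 12 secreted Wnt antagonists 4 were lower and 0 higher. Sfrp1 (8.82 ± 0.50 and 11.17 ± 0.05; -2.35 ± 0.20) and Sfrp2 (10.19 ± 0.51 and 12.35 ± 0.06; -2.16 ± 0.21) joined Sfrp4, and Dkk2 was lower near background (-0.60 ± 0.10). Of 13 carbonic anhydrases 3 were higher and 4 lower. Car6 and Car7 (0.71 ± 0.10) were higher and the mitochondrial Car5b lower (-1.72 ± 0.16).

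Immune genes differed by class. Of 24 interferon-stimulated genes 16 were higher and 1 lower with a median of 0.54. Ifit1, which binds foreign RNA, read 8.78, 8.13, 8.14 and 8.44 in the labelled 100 arrays and 6.52, 6.46, 6.15 and 6.26 in the labelled 1 arrays (difference 2.02 ± 0.15, adjusted p = 5.02e-06). Oasl2 (1.72 ± 0.13), Usp18 (1.39 ± 0.13) and the RNA sensor Ifih1 (1.29 ± 0.14) were higher, while Irf1 (8.70 ± 0.14 and 8.67 ± 0.06) and Ifit3 (8.43 ± 0.30 and 8.78 ± 0.14) did not pass. Of 21 chemokines and cytokines 8 were higher and 5 lower. Cxcl1 (1.28 ± 0.08) and Ccl2 (0.95 ± 0.08) were higher with Ccl5 and Cxcl10, Cx3cl1 was lower (-1.25 ± 0.13), and Il6 was lower, reaching background at the labelled 100 (3.84 ± 0.27 and 5.39 ± 0.11; difference -1.55 ± 0.13, adjusted p = 8.98e-06).

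Prostaglandin genes had one large member. Ptgs2, the inducible cyclooxygenase, read 11.55, 11.63, 11.57 and 11.54 in the labelled 100 arrays and 9.58, 9.52, 9.49 and 9.68 in the labelled 1 arrays, a 4.01-fold higher level (difference 2.00 ± 0.07, adjusted p = 1.83e-07). Of 14 measured genes 4 were higher and 3 lower. The phospholipase Pla2g4a, which frees arachidonic acid, was higher (0.76 ± 0.11), and the receptor Ptger4 (-0.69 ± 0.09) and the reductase Ptgr1 (-1.18 ± 0.10) were lower.

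Genes of mitosis were mostly lower. Of 22 mitosis genes 15 were called lower and 1 higher, with a median of -0.46. Mki67 (9.72 ± 0.10 and 10.73 ± 0.13; -1.02 ± 0.09), Cdk1 (-0.72 ± 0.07), Ccna2 (-0.65 ± 0.07) and Top2a (-0.70 ± 0.08) were among them. Of 22 replication genes 7 were lower, among them Tk1 (-1.64 ± 0.10), Ccne1 (-0.78 ± 0.09) and Rrm1 (-0.59 ± 0.07), and 4 were higher, among them the licensing factor Cdt1 (0.85 ± 0.07). In bulk RNA, fewer cells in division and less of these transcripts per cell cannot be told apart. Of 17 targets of p53 12 were higher and 4 lower, with a median of 0.60. Plk2 (10.58 ± 0.10 and 8.89 ± 0.19; 1.69 ± 0.10), Gadd45a (1.31 ± 0.08) and Plk3 (1.22 ± 0.09) were higher, Sesn1 was lower (-1.21 ± 0.09) and Ccng1 did not pass (10.32 ± 0.11 and 10.40 ± 0.02).

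Of 20 nucleolar genes of ribosome biogenesis 19 were higher and 0 lower, with a median of 0.94. Rrp12, a factor of pre-ribosome export, read 8.26, 8.51, 8.49 and 8.45 in the labelled 100 arrays and 6.43, 6.65, 6.58 and 6.84 in the labelled 1 arrays (difference 1.80 ± 0.10, adjusted p = 1.46e-06). The RNA polymerase I subunit Polr1b (1.60 ± 0.10), Gnl3 (1.52 ± 0.09) and Nop2 (1.17 ± 0.07) were higher, and Bop1 was the one that did not pass (9.70 ± 0.06 and 9.64 ± 0.09). The transcription factor Myc, which drives these genes in many cells, read 11.68, 11.82, 11.65 and 11.63 in the labelled 100 arrays and 9.90, 10.04, 9.89 and 10.04 in the labelled 1 arrays (difference 1.73 ± 0.07, adjusted p = 6.44e-07). Respiratory chain genes were lower in 13 of 28 and higher in 0, with a median of -0.21, and lower in 8 with the row of the scan name as a block. Ndufa4 (-0.79 ± 0.06), Ndufa8 (-0.70 ± 0.09), Ndufb3 (-0.65 ± 0.07) and Cox6c (-0.52 ± 0.07) were lower. Of 26 lysosome and autophagy genes 11 were higher and 2 lower, with Npc1 (0.98 ± 0.07), Gabarapl1 (0.75 ± 0.06) and Sqstm1 (0.65 ± 0.06) higher, Tfeb lower (-0.73 ± 0.09), and Lamp1 at 12.34 ± 0.06 and 12.32 ± 0.03.

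**Figure D4:**
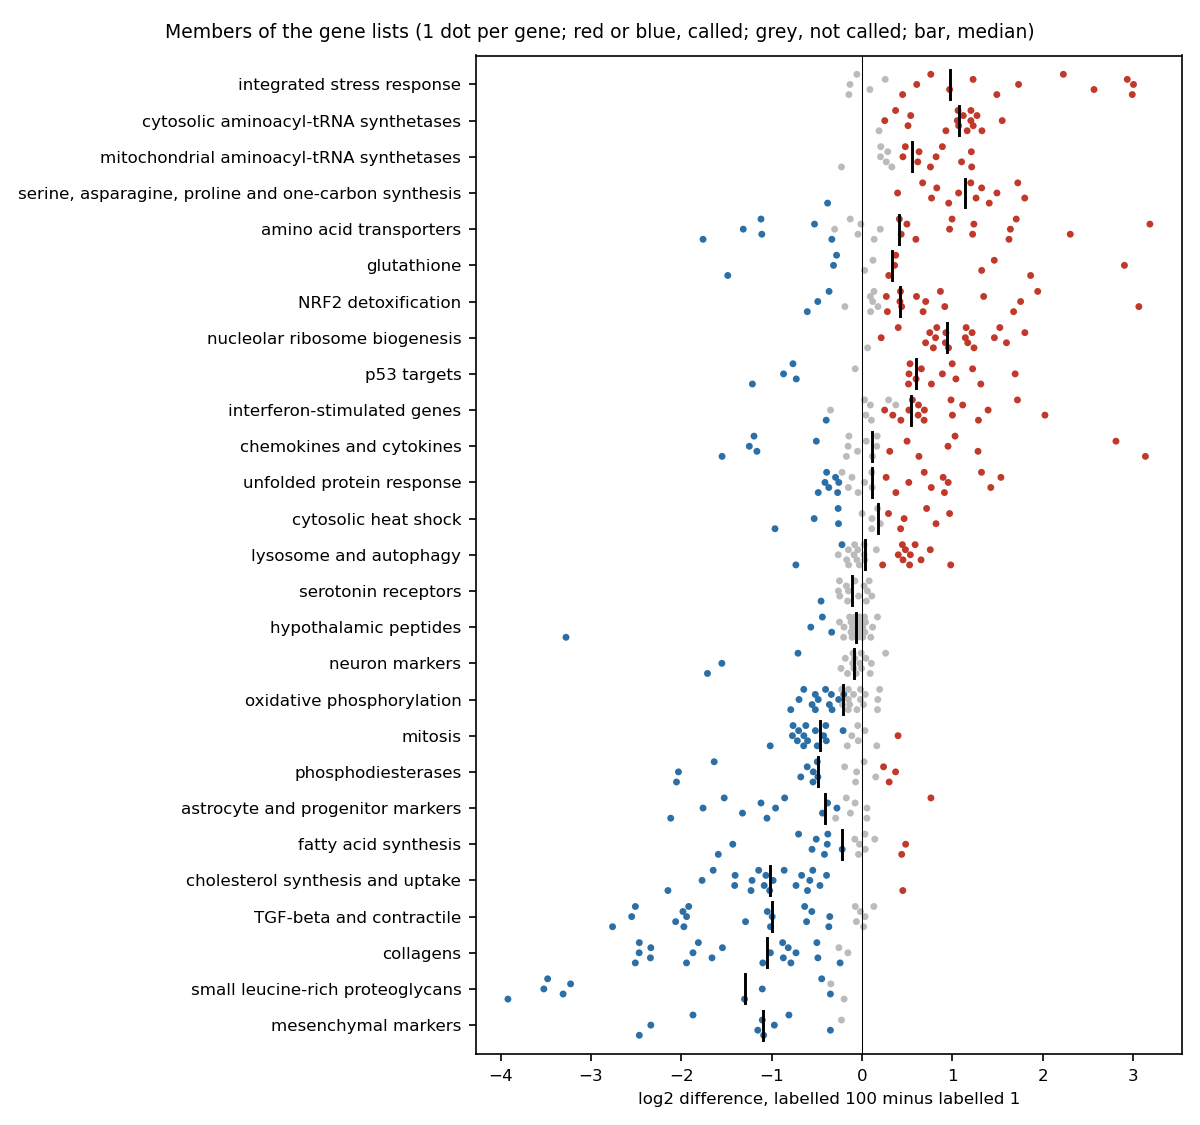
Log2 difference between the labelled 100 and the labelled 1 arrays (horizontal axis) for the measured members of 27 of the gene lists, 1 dot per gene; red and blue dots were called higher and lower at an adjusted p below 0.05, grey dots were not called, and black bars are list medians. Medians lie near 1 for the stress, synthetase and amino acid synthesis lists and near -1 for the cholesterol, contractile, collagen and mesenchymal lists.

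The label of the line as neuronal was set against marker levels. Of 18 neuron markers 11 had a mean above background at each labelled dose, but Rbfox3, Dcx, Nefl, Nefm, Snap25, Syp and Elavl4 lay below it in both groups. The highest levels were those of Map2, Ncam1, Eno2 and Uchl1. Map2, a protein of dendritic microtubules, read 8.98, 8.56, 8.37 and 8.64 in the labelled 100 arrays and 10.27, 10.44, 10.20 and 10.48 in the labelled 1 arrays (difference -1.71 ± 0.13, adjusted p = 5.09e-06), and Ncam1 (-0.71 ± 0.08) and Thy1 (-1.55 ± 0.12) were lower too, while 0 of 18 were higher. Averaged over the list, the level ran from 5.22 to 5.28 in the labelled 100 arrays and from 5.47 to 5.52 in the labelled 1 arrays.

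Markers of mesenchymal cells were high in this line and lower at the labelled 100. Of 10 markers 8 had means above background in both groups, the exceptions being Fap and Lum. Col1a1, Col1a2, Prrx1 and Pdgfrb were above 11 in the labelled 1 group. Pdgfrb, a growth factor receptor of mural cells and fibroblasts, read 11.25, 10.78, 10.81 and 11.01 in the labelled 100 arrays and 11.99, 12.12, 11.98 and 12.12 in the labelled 1 arrays (difference -1.09 ± 0.11, adjusted p = 2.80e-05). In all, 9 of 10 were lower and 0 higher. Lum, itself under background, lost its call without any of the labelled 100 arrays or without array 1 or 3 of the labelled 1 group (adjusted p from 0.060 to 0.101). The list's mean level ran from 7.14 to 7.69 over the labelled 100 arrays and from 8.52 to 8.64 over the labelled 1 arrays. Among the 10 markers, Col1a1, Col1a2, Col3a1, Dcn and Lum are themselves matrix genes. That the matrix and marker lists were lower together is therefore partly fixed by shared members. Whether the makeup of the cultures has a part in the lower matrix genes was not tested.

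Progenitor and astrocyte markers were lower in 11 of 18 and higher in 1. Of these 18, 15 had a mean above background at the labelled 100 and 14 at the labelled 1. The Notch target Hes1 (-1.32 ± 0.09), glutamine synthetase Glul (-1.05 ± 0.08), Sox2 (-0.86 ± 0.08) and Fabp7, which reached background (4.56 ± 0.33 and 6.68 ± 0.24; -2.12 ± 0.17), were lower with Slc1a3. The gap junction protein Gja1 was higher (0.76 ± 0.07), and Vim was at 13.08 ± 0.05 and 13.26 ± 0.03. Of 7 oligodendrocyte markers 2 had a mean above background at the labelled 100 and 1 at the labelled 1, while Mog, Mag, Mobp, Olig1 and Olig2 were under it. Only the enzyme Cnp was called (7.43 ± 0.31 and 9.02 ± 0.07; -1.59 ± 0.14). Of 9 microglia markers 4 had a mean above background at each labelled dose, while Aif1, P2ry12, Csf1r and Itgam were under it. Called were 2 of the 9, Tmem119 (-2.12 ± 0.17) and Cd68 (0.77 ± 0.10). Of 7 endothelial markers 4 had a mean above background at the labelled 100 and 3 at the labelled 1, while Pecam1, Cdh5 and Kdr were under it. Called were 3 of the 7, Tek (-1.91 ± 0.14), Flt1 (-1.10 ± 0.16) and Esam (0.98 ± 0.14). The mean levels of these 3 lists stayed between 4.36 and 5.04 in all 8 arrays. Of 17 transcription factors of the developing hypothalamus 6 were lower, among them Dlx5 (-1.74 ± 0.13), Lhx6 (-1.06 ± 0.12) and Foxd1 (-0.84 ± 0.08), and 2 were higher.

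Signalling genes showed mixed directions. Of 17 immediate early genes 6 were higher and 3 lower. Ier3 (1.45 ± 0.09) and Nr4a2 (1.07 ± 0.09) were higher, Egr3 lower (-1.18 ± 0.10), and Egr1 was at 10.02 ± 0.11 and 9.92 ± 0.05. Of 14 feedback inhibitors of MAP kinases 7 were higher and 3 lower, led by the phosphatase Dusp4 (9.32 ± 0.10 and 7.30 ± 0.24; 2.02 ± 0.12) and with Spry4 (0.83 ± 0.08). Phosphodiesterases, which end cyclic nucleotide signals such as those downstream of serotonin receptors, were lower in 9 of 17 and higher in 3, and lower in 4 with the row of the scan name as a block. The calcium-dependent Pde1a read 6.13, 5.67, 5.81 and 5.85 in the labelled 100 arrays and 7.79, 8.01, 7.86 and 7.93 in the labelled 1 arrays (difference -2.03 ± 0.10, adjusted p = 9.71e-07). Pde2a (-2.05 ± 0.13) and Pde1b (-1.64 ± 0.10) were lower, and Pde4a did not pass (7.33 ± 0.07 and 7.52 ± 0.13).

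Of 15 clock genes 6 were higher and 6 lower. Ciart, a repressor of the clock, read 10.02, 10.19, 10.04 and 10.18 in the labelled 100 arrays and 7.98, 7.87, 8.13 and 8.02 in the labelled 1 arrays (difference 2.11 ± 0.08, adjusted p = 2.87e-07), and Cry1 (0.76 ± 0.08), Nr1d2 (0.64 ± 0.06) and Nfil3 (1.59 ± 0.21) were higher. Of 15 zinc genes 6 were higher and 0 lower. The exporters Slc30a1 (1.07 ± 0.14) and Slc30a4 (0.72 ± 0.07) and the importer Slc39a6 (0.77 ± 0.08) were higher, whereas the metallothioneins Mt1 (12.09 ± 0.06 and 11.96 ± 0.08) and Mt2 (12.94 ± 0.10 and 12.80 ± 0.09) did not pass. Retinoid and alcohol oxidation had 3 higher and 6 lower of 15. Crabp1, a retinoic acid binding protein (-2.33 ± 0.22), Dhrs3 (-1.63 ± 0.09) and Aldh1a3 (-1.06 ± 0.10) were lower, and Adh7 was higher (0.72 ± 0.07).

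The gene lists were compared array by array against the mean of the 8 arrays. For the integrated stress response the median over members lay between 0.38 and 0.55 in the labelled 100 arrays and between -0.43 and -0.49 in the labelled 1 arrays. For the small leucine-rich proteoglycans it was -0.30 in array 1 of the labelled 100 group and -0.95, -0.94 and -0.55 in arrays 2, 3 and 4. Collagens gave -0.37 in array 1 and -0.50 to -0.71 in the others. The groups did not overlap in any of the 12 lists plotted. These 12 were picked from 48 lists with the results known, most of them for large medians, so their separation was likely beforehand. Other lists did overlap. The serotonin receptors lay between -0.04 and -0.08 in the labelled 100 arrays and at 0.19, 0.02, 0.12 and -0.06 in the labelled 1 arrays. Array 1 of the labelled 100 group was the nearest of its 4 to the labelled 1 group in 9 of these 12 lists, matrix and stress lists alike. The exceptions were the interferon-stimulated, cholesterol and mitosis lists, and in the cholesterol list its -0.49 lay within the range of the other three.

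**Figure D5:**
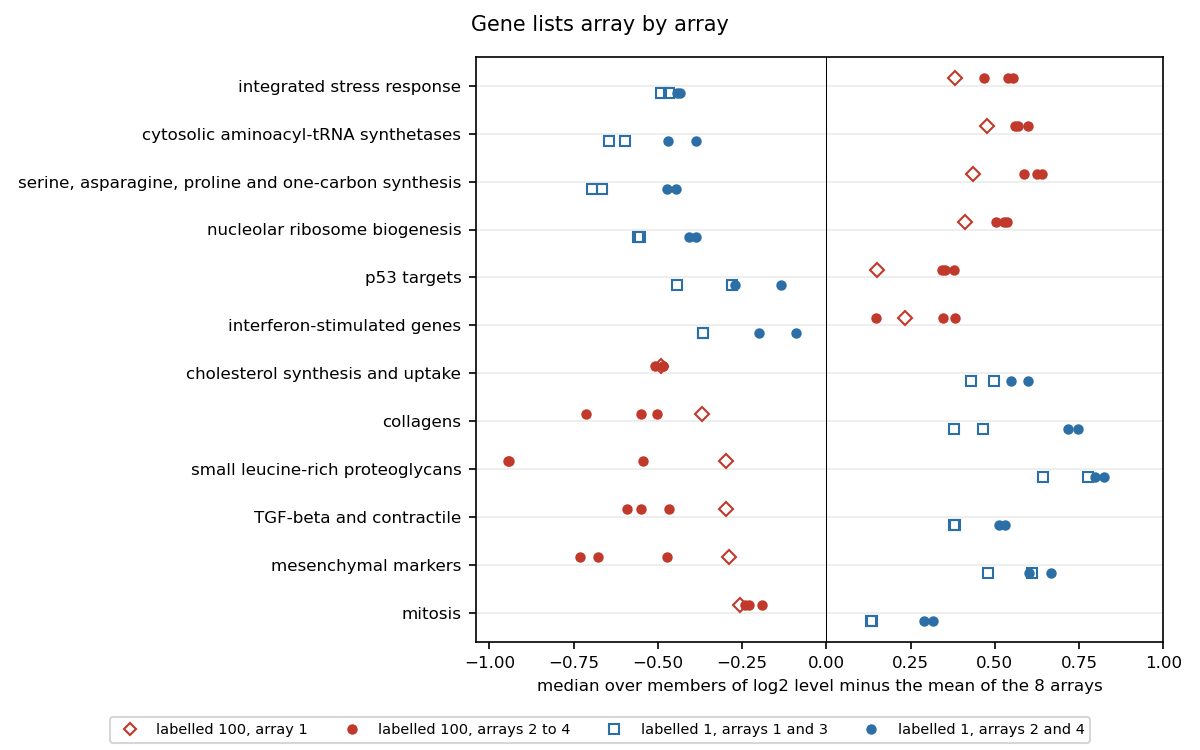
Median over the members of 12 gene lists of the log2 level minus the mean of the 8 arrays (horizontal axis), 1 mark per array; red is the labelled 100 (open diamond array 1) and blue the labelled 1 (open squares arrays 1 and 3, whose upper quartiles were low). Red and blue marks do not overlap in any of these lists, which were picked with the results known. The open diamond is the red mark nearest to the blue ones in 9 of them.

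The positions given in the scan names of the arrays were not balanced over the groups. The labelled 100 arrays came from rows B and C and the labelled 1 arrays from rows C and D, so row and group can be told apart only through row C. Row C holds arrays 3 and 4 of the labelled 100 group and, of the labelled 1 group, array 1 alone. That array had the highest receptor background of the 8 arrays, 5.36. A difference with the row as a block therefore rests on this single labelled 1 array. All counts given with that block carry this limit. With the row as a block the count of genes called was 6549, of which 5018 were among the 7250. Named genes that lost their call with this block were Abca1, Aldh2, Apoe, Htr1d, Lamb1, Mchr1, Nmu, Slc18a2 and Tgm2. With each array centred on its median, Aldh2, Grp, Htr1d, Lum, Nmu and Slc18a2 lost theirs. Row blocking also lowered the number of members called lower from 6 to 1 for the clock, 3 to 1 for glutathione and for MAP kinase feedback, 6 to 3 for hypothalamic transcription factors, 7 to 4 for DNA replication and 4 to 2 for carbonic anhydrases. Both groups were present at each of the position numbers 5, 7 and 9. Blocking on that number, the count of genes called was 6680.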

How the data were processed

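Each sample was hybridised to 1 Affymetrix whole-transcript array. The values are log2 levels that the authors deposited after robust multi-array averaging (RMA, per the submitters' processing notes), with no further scaling here. Of 35556 probe sets 21218 carried 1 gene symbol in the platform annotation, 1881 several and 12457 none; where several probe sets named a gene (1386 genes), that of the highest mean over the 8 arrays stood for it, giving 18820 genes. Arrays were grouped by title. The 8 arrays were fitted with 1 mean per group in limma 3.58.1 (R 4.3.3) with moderated variances, and p-values were adjusted by the Benjamini-Hochberg method over all genes. Standard deviations are over 4 arrays and standard errors are those of the fit. The test was checked on simulated data. The members and gene lists were chosen with earlier results of these data known, so a list's count is a description; list genes without a tested row were not analysed here.

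Named genes are the 15 largest differences in each direction among called genes whose groups do not overlap (without predicted, receptor or small RNA genes), up to 6 called members of a list by adjusted p and up to 2 that were not called by level, all genes of the serotonin receptor, serotonin handling and tetrahydrobiopterin lists, Npy, and defining cell type markers. Alternatives covered other samples in the fit, normalization, filters, probe set choice, blocks, array weights and each array left out. Promoters and coordinates are from RefSeq, build GRCm38.p6. Deviations of arrays with the same replicate number correlated at 0.41, -0.08, -0.10 and 0.39, so the numbers do not pair the arrays.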

Additional observations from a re-analysis of the deposited data

Results flagged for a closer look

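Among the named genes, 556 groups of 4 arrays were searched for an array far from the other three, and 29 were found; chance alone gives about 1 in 20. Array 1 of the labelled 100 group was the distant array in 14 of the 29. It was the highest of its group in Islr (5.95), Mgll (5.39), Gper1 (6.54), Slc1a3 (8.67), Myl9 (10.00), Thbs1 (10.12), Ndufa8 (10.07) and Lamp1 (12.43). It was the lowest in Mthfd2 (11.12), Ero1a (10.91), Hspd1 (11.35), Pla2g4a (9.06), Cdt1 (10.90) and Gnl3 (10.18).

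In the labelled 1 group, array 3 was the lowest in Ppp1r15a (7.55), Htr5b (4.28), Fn1 (12.64), Pla2g4a (8.12) and Cdt1 (9.97), and array 1 was the lowest in Nars2 (5.95), Igfbp7 (11.52) and Dlx5 (7.31) and the highest in Fap (3.79). In the labelled 100 group, array 2 was the highest in Igfbp4 (7.43) and the lowest in Tfeb (7.07), and array 3 was the highest in Gclm (11.18) and Slc39a6 (10.05) and the lowest in Snap25 (3.99). Array 4 was the highest in Itgam (4.10).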

How the results depend on the processing

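The 7250 genes called became 1313 when a difference of more than 1.5-fold was tested for, with 615 genes called higher and 698 genes called lower. Within position number 5 alone they were 2049 (802 higher, 1247 lower) and within number 9 alone 1350 (614 and 736), while within number 7 alone they were 5119. At number 5 the comparison is 1 array against 1, at number 9 it is 1 against 2 and at number 7 it is 2 against 1; the spread is pooled with the other groups at that position, and a lone array is assumed to vary like them. Without each array in turn the count of genes called ran from 6258 to 7516. With the row of the scan name as a block, the genes called higher at least 2-fold were 1038 in place of 537, and within row C alone, with 2 arrays against 1, they were 1041 among 9075 genes called; the cause was not tested. With that block, members called lower were 5 in place of 9 for fatty acid synthesis, 8 in place of 13 for oxidative phosphorylation and 4 in place of 9 for phosphodiesterases. Of 462 alternative counts for the 22 list counts of 8 or more, 459 lay within 1.5 times the reported count. The replicate number as a block gave 7475 genes called (4272 higher, 3203 lower), and not every array correlated best with its own number, so no pairing is claimed. Leaving out both labelled 1 arrays of low upper quartile gave 6656 genes called, 49.4% of them higher in place of 57.6%. If the description's doses hold, the same 7250 are 3076 higher and 4174 lower. Of 198 named genes called, 187 were called in every alternative run for them and 0 reversed with the doses of the titles. The other 11 were Abca1, Aldh2, Apoe, Grp, Htr1d, Lamb1, Lum, Mchr1, Nmu, Slc18a2 and Tgm2. The named genes were mostly picked by large differences or small adjusted p in these same arrays. Their stability is therefore largely given by the choice and does not speak for the other called genes. With the row of the scan name as a block, 5018 of the 7250 were still called. The number of arrays and the background near 4.45 limit what can be seen of scarce transcripts such as most serotonin receptors.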
